A study of Mus musculus with 12 samples.

Results

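The difference that a human islet amyloid polypeptide (hIAPP) transgene made to the transcripts of pancreatic islets lacking BACE2 was read from 6 of the 12 arrays of the series. The 3 hIAPP/BACE2-KO arrays, from mice with the transgene and without BACE2, were set against the 3 BACE2-KO arrays, from mice without BACE2 and without the transgene, as the labels assign them. Of the 17097 genes with a probe set of 1 symbol, 12825 had a mean level at or above the filter and were tested. The other 6 arrays, 3 hIAPP and 3 WT, entered the same fit and gave the transgene difference in mice that keep BACE2.

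All mice were 12 weeks old, ate standard chow freely and carry the strain name B6;129P2-Bace2tm1Bdes/J in the labels, WT mice included. By their genotype labels both groups compared share the loss of BACE2. The promoter that drives the transgene, the sex of the mice, and whether islets were pooled over mice are not stated in the labels or the series' design text. Each label speaks of 1 mouse, and nothing else says how the arrays of a group are separate, so each p-value reflects only array-to-array spread, which may in part be technical. Whole islets were measured, and a lower level from fewer cells of a type cannot be told apart from less RNA per cell.

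Islet amyloid polypeptide, or amylin, is co-secreted with insulin by beta cells. The human peptide aggregates into islet amyloid, a hallmark of type 2 diabetes, whereas the mouse peptide does not. In other models such aggregates are known to stress beta cells and to activate islet macrophages. BACE2 is a membrane aspartyl protease of beta cells, related to the beta-secretase BACE1.

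The labels could be checked only in part. Bace2 had levels of 10.65, 10.95 and 10.94 on the log2 scale in hIAPP/BACE2-KO arrays, against 10.85, 11 and 10.97 in BACE2-KO arrays, close to the WT mean of 11.09. No source used here places these probes inside or outside the deletion, so this level checks nothing about the knockout. The transgene's own transcript, mouse Iapp and Ins1 were not analysed here, since no probe set names 1 of them alone. The islet hormones were near the top of the scale: Ins2 had levels of 13.98, 13.97 and 13.96 in hIAPP/BACE2-KO arrays and 14, 13.99 and 13.97 in BACE2-KO arrays. At that level a difference may be compressed.

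The arrays numbered 2 lay at opposite ends of the main axis of spread. On the first principal component of the 6 arrays, hIAPP/BACE2-KO replicate 2 lay at 28.67 and BACE2-KO replicate 2 at -16.62. The other 4 lay between -9.998 and 0.89. On the second component hIAPP/BACE2-KO replicate 1 stood apart, at 23.67, with the other arrays between -12.52 and 7.46. In hIAPP/BACE2-KO replicate 2, 207 genes were at least 1 log2 unit from the mean of its group mates, against 121 and 107 in replicates 1 and 3. By that count BACE2-KO replicate 2 did not stand apart from its mates, with 90 genes against 149 and 115 in replicates 1 and 3. The standard deviation of the differences from the group mates was 0.323 in both hIAPP/BACE2-KO replicates 1 and 2. It was 0.278 in hIAPP/BACE2-KO replicate 3.

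No gene passed the test between hIAPP/BACE2-KO and BACE2-KO islets. Limma called 0 of 12825 genes at a Benjamini-Hochberg adjusted p under 0.05, a share of 0%, and the lowest adjusted p was 0.9615. At an unadjusted p under 0.05 there were 569 genes (4.44%), 303 higher and 266 lower in hIAPP/BACE2-KO islets. A share of 5% would be reached if no gene differed. All 3 hIAPP/BACE2-KO arrays lay above all 3 BACE2-KO arrays for 524 genes (4.09%) and below them for 717 genes (5.59%). The central 90% of differences ran from -0.267 to 0.323 log2, with a median of -0.0133, and 45.9% of genes were higher. The median standard error of a difference was 0.141.

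**Figure D1:**
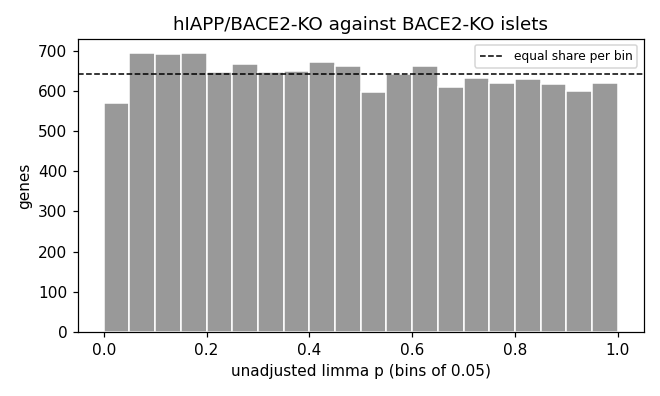
Number of genes (vertical axis) in each bin of 0.05 of the unadjusted limma p (horizontal axis) for hIAPP/BACE2-KO against BACE2-KO islets, over 12825 genes. The dashed line is an equal share per bin, and the lowest bin, with 569 genes, lies below it.

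The main endocrine transcripts lay close together in both groups. The alpha cell hormone Gcg had levels of 13.07, 13.22 and 13.17 in hIAPP/BACE2-KO arrays and 13.12, 13.10 and 13.20 in BACE2-KO arrays, a difference of 0.01 log2 (95% interval -0.13 to 0.16). The delta cell hormone Sst differed by 0.01 (-0.33 to 0.35) and Ppy, pancreatic polypeptide, by -0.05 (-0.24 to 0.13). For Ins2 the interval was -0.14 to 0.11. These intervals bound the differences in signal that 3 arrays a group allow, and they do not show equality. Near the top of the scale, as for Ins2, a difference in transcript may be compressed and is not bounded by them.

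Among 17 beta cell identity genes, 14 were lower and 3 higher in hIAPP/BACE2-KO islets, with a median difference of -0.14, against -0.0133 over all genes tested. None passed the test. Their mean level per array was 10.04, 10.20 and 10.32 in hIAPP/BACE2-KO islets and 10.26, 10.35 and 10.35 in BACE2-KO islets, so the groups overlapped. Nkx6-1, a transcription factor that maintains beta cell identity, had levels of 9.76, 10.10 and 10.09 in hIAPP/BACE2-KO arrays and 10.51, 10.30 and 10.15 in BACE2-KO arrays, with no overlap and a difference of -0.34 (-0.73 to 0.05). The receptor of the gut hormone GIP, Gipr, was also below in all 3 arrays, with a difference of -0.33, which was -0.15 without BACE2-KO replicate 2 and -0.19 without both arrays numbered 2. Without hIAPP/BACE2-KO replicate 1, the lowest array, the median over the identity genes was -0.025. The maturity marker Ucn3 showed that array plainly, with 10.05, 10.57 and 11.05 in hIAPP/BACE2-KO islets against 10.81, 10.89 and 10.98 in BACE2-KO islets. In mice with BACE2, 0 of the 17 identity genes were higher in hIAPP than in WT islets, with a median of -0.167.

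The genes that beta cells normally keep low, the disallowed genes, lay the other way. All 12 tested were higher in hIAPP/BACE2-KO islets, with a median of 0.347, and 0 passed the test. Igfbp4, a binding protein of insulin-like growth factors, had 7.92, 7.85 and 7.90 in hIAPP/BACE2-KO arrays and 7.53, 7.27 and 7.42 in BACE2-KO arrays, a difference of 0.48 (0.00 to 0.97), and of 0.31 in the mean over its probe sets. Ldha, lactate dehydrogenase A, ranged from 8.75 to 9.41 in hIAPP/BACE2-KO arrays and from 7.63 to 9.25 in BACE2-KO arrays, a difference of 0.44 that was -0.02 without BACE2-KO replicate 2, 0.24 without hIAPP/BACE2-KO replicate 2 and -0.23 without both. Many of these genes are also expressed by stromal and endothelial cells. Without hIAPP/BACE2-KO replicate 2 the list's median was 0.197, without BACE2-KO replicate 2 it was 0.153, and without both it was 0.0325. Between hIAPP and WT islets 11 of the 12 were higher with the transgene, with a median of 0.108.

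The genes with the lowest p and no overlap gave the clearest single differences, though each had an adjusted p of at least 0.9615. Tmem35a, which encodes a chaperone of nicotinic acetylcholine receptors, had 3.80, 3.35 and 3.65 in hIAPP/BACE2-KO arrays and 4.44, 4.21 and 4.82 in BACE2-KO arrays, a difference of -0.89 (-1.24 to -0.54). These levels are near the floor of the array, where the filter was 3.43. Chl1, a neural cell adhesion protein of the L1 family, had 6.08, 5.64 and 5.77 in hIAPP/BACE2-KO arrays against 4.18, 4.70 and 4.57 in BACE2-KO arrays, and differed by 1.35 (0.72 to 1.98). The lowest hIAPP/BACE2-KO array was thus nearly 1 log2 unit above the highest BACE2-KO array. The other 3 probe sets of Chl1 had mean levels of 3.34, 3.14 and 2.91 over all arrays, and the mean over its probe sets differed by 0.42. Lhfp, a tetraspan membrane protein, had 6.23, 6.76 and 6.35 in hIAPP/BACE2-KO arrays against 5.75, 5.47 and 5.25 in BACE2-KO arrays, a difference of 0.96 (0.55 to 1.36). Nav3, a neuron navigator protein that binds microtubules, was at 6.39, 6.67 and 6.68 in hIAPP/BACE2-KO arrays and at 5.93, 5.90 and 5.97 in BACE2-KO arrays. The BACE2-KO arrays of Nav3 lay within 0.1 of each other.

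Other genes higher without overlap included Myh9, the non-muscle myosin heavy chain, by 0.40 (0.22 to 0.59), and Entpd4, a nucleotide-hydrolysing enzyme of the Golgi, by 0.66 (0.35 to 0.97). Slc25a37, the mitochondrial iron importer mitoferrin, was higher by 0.59 (0.31 to 0.87), and Ftl1, the ferritin light chain that stores iron, was lower, with a difference of -0.25 (-0.39 to -0.10). Hjurp, the chaperone that loads the centromeric histone, had 5.76, 4.89 and 5.32 in hIAPP/BACE2-KO arrays and 6.81, 6.01 and 6.44 in BACE2-KO arrays. C8b, a complement component, differed by -0.82, Dpp10, an auxiliary subunit of potassium channels, by -0.70, and Gas2, a cytoskeletal protein, by -0.65. All these genes were picked for having no overlap, so leaving out any 1 array could not change their direction.

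**Figure D2:**
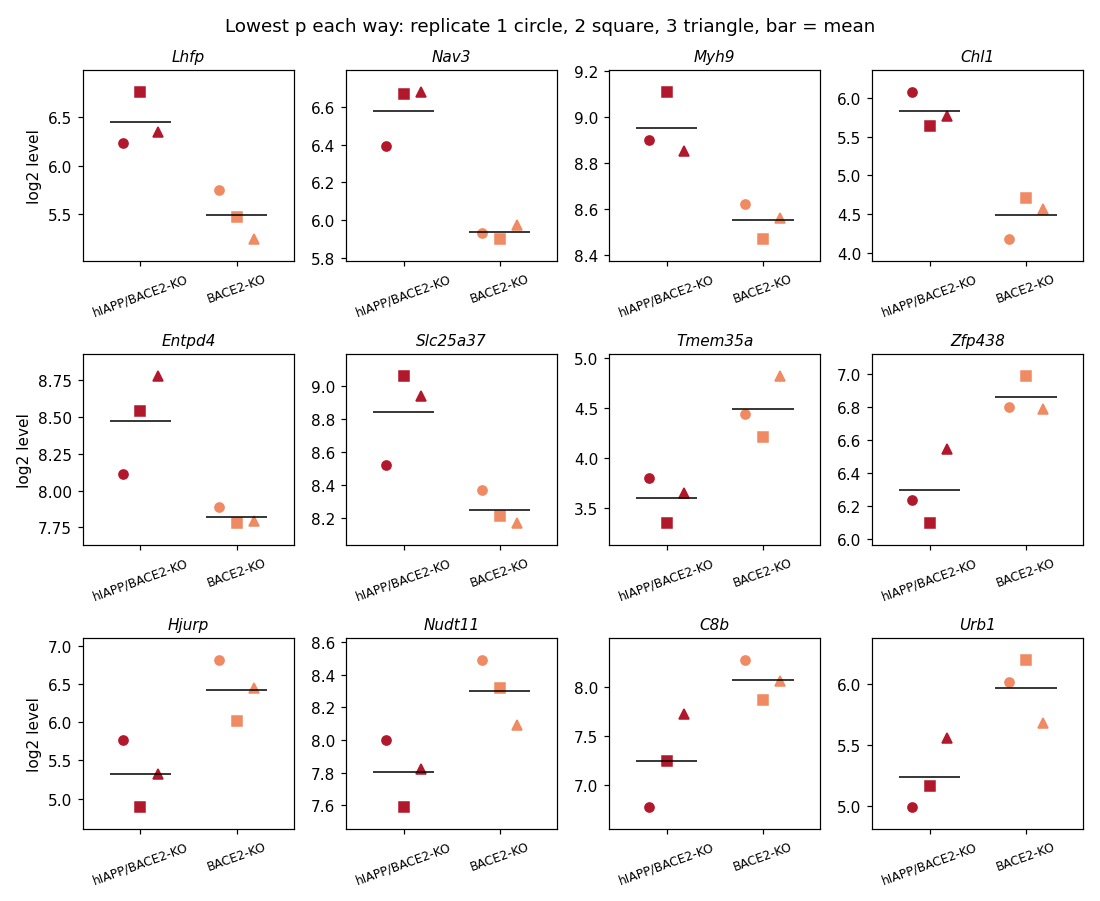
Log2 level (vertical axes, each with its own range) of the 6 genes higher and the 6 lower in hIAPP/BACE2-KO islets that had the lowest p and no overlap, per array in hIAPP/BACE2-KO and BACE2-KO islets. Symbols mark the replicate and bars the group mean. Chl1 has the widest gap between the groups, and no gene shown passed the adjusted test.

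Interferon stimulated genes, which cells express on sensing viral nucleic acid or interferon, were higher in 34 of 35 tested, with a median difference of 0.423. None passed the test. At an unadjusted limma p under 0.05 there were 7, where all genes gave a share of 4.44%. The groups did not overlap in 7 (20%, against 4.09% of all genes). Here and for the lists below, members were chosen with earlier results of these data known, so such shares are description only. Oas2, an enzyme that senses double-stranded RNA, had 5.86, 6.45 and 6.39 in hIAPP/BACE2-KO arrays and 5.43, 4.46 and 5.41 in BACE2-KO arrays, a difference of 1.13 (0.57 to 1.70), and of 0.70 without both arrays numbered 2. Eif2ak2, the RNA-activated kinase PKR, had 5.99, 6.4 and 6.25 in hIAPP/BACE2-KO arrays and 5.10, 5.39 and 5.96 in BACE2-KO arrays, and differed by 0.73 (0.27 to 1.19). For both genes every hIAPP/BACE2-KO array lay above every BACE2-KO array. Stat2, a transcription factor of interferon signalling, differed by 0.51 (0.04 to 0.97), again with no overlap. Ifit1, an RNA-binding antiviral protein, had 8.47, 8.31 and 8.37 in hIAPP/BACE2-KO arrays and 7.90, 6.96 and 8.28 in BACE2-KO arrays. It differed by 0.67, by 0.29 without BACE2-KO replicate 2 and by 0.33 without both arrays numbered 2.

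The size of the interferon difference depended on 1 array. The mean over the 35 genes was 7.39, 7.70 and 7.62 in hIAPP/BACE2-KO arrays and 7.14, 6.66 and 7.48 in BACE2-KO arrays, and BACE2-KO replicate 2 was the lowest of all 12 arrays. Without it the median was 0.153 and 31 of 35 genes were higher. Without either array numbered 2 it was 0.13, with 27 of 35 higher. In mice with BACE2 the median of the same genes between hIAPP and WT islets was 0.0167. Macrophage and myeloid genes, listed as markers of other cells, had means of 5.84, 6.97 and 6.36 in hIAPP/BACE2-KO arrays and 5.85, 6.23 and 6.35 in BACE2-KO arrays. Their part in the interferon difference was not tested.

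The promoters of 3 of these genes are shown because they carry the letters of the interferon response element and had the lowest p among list members with that motif, a choice made after their values were seen. They were taken from the RefSeq promoter table on build GRCm38.p6 and run from 250 bases before to 50 after the gene's start, in the gene's own direction. Eif2ak2 lies at chr17:78882523-78882822 on the minus strand, Stat2 at chr10:128270248-128270547 on the plus strand and Gbp3, which encodes a guanylate-binding GTPase, at chr3:142559794-142560093 on the plus strand. Capitals mark the core of that element, which is GAAA, any 2 bases and GAAA again, or on the other strand TTTC, any 2 bases and TTTC. In Gbp3 a pair of matches overlaps.
Eif2ak2: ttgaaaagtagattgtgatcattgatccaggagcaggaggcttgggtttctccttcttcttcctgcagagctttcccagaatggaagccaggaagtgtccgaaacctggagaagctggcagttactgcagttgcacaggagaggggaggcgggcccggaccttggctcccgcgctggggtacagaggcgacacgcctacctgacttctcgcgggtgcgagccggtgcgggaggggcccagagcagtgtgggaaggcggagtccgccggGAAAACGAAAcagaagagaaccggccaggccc
Stat2: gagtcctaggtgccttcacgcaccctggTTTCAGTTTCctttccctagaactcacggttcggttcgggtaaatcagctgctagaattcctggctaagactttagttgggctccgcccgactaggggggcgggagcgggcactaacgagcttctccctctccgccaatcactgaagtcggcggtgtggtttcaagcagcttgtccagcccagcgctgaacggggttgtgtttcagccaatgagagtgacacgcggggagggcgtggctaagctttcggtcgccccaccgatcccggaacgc
Gbp3: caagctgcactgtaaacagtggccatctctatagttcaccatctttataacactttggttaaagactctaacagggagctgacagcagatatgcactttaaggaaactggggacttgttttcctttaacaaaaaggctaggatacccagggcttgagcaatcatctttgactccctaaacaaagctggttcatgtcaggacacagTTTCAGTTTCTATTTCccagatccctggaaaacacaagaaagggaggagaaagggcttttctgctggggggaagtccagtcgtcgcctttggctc

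Of the interferon list, 24 members had a promoter in the table, and 13 of them (54.2%) held the motif on either strand. Among all genes of the table the share was 3.99%. The median difference was 0.507 for the 13 members with the motif and 0.247 for the 11 without, and 13 of 13 and 10 of 11 were higher in hIAPP/BACE2-KO islets. Without BACE2-KO replicate 2 the medians were 0.293 and 0.105, and without both arrays numbered 2 they were 0.21 and 0.015. The other 11 of the 35 members tested, Oas2 and Rtp4 among them, had no entry. A match describes the letters in this window only.

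Genes of stellate cells and fibroblasts, the cells that lay down matrix in the pancreas, were higher in 14 of 15 tested, with a median of 0.563. In 8 of the 15 the groups did not overlap (53.3%, against 4.09% of all genes), and 0 passed the test. This list too was chosen with earlier results known, so the share is description only. Pdgfrb, the receptor for platelet-derived growth factor on pericytes and stellate cells, had 4.91, 5.32 and 5.10 in hIAPP/BACE2-KO arrays and 4.62, 4.29 and 4.45 in BACE2-KO arrays, a difference of 0.66 (0.31 to 1). Fap, a surface protease of activated fibroblasts, had 4.62, 4.42 and 4.78 in hIAPP/BACE2-KO arrays and 4.15, 3.9 and 4 in BACE2-KO arrays, a difference of 0.59 (0.27 to 0.91). Both genes are expressed at low levels. Neither overlapped between the groups, so leaving out any 1 array could not change their direction. Col1a1, a chain of fibrillar collagen, was highest in hIAPP/BACE2-KO replicate 2, with 3.67, 5.01 and 3.70 in hIAPP/BACE2-KO arrays and 3.51, 3.46 and 3.22 in BACE2-KO arrays. Its difference was 0.73, and 0.29 without that array. The collagen gene Col3a1 differed by 0.56, and by -0.015 without that array. A further collagen gene, Col1a2, was below the filter and not tested. It had 3.01, 3.22 and 3.06 in hIAPP/BACE2-KO arrays and 3.28, 3.11 and 3.10 in BACE2-KO arrays. The list's median was 0.312 without BACE2-KO replicate 2, and 0.25 without both arrays numbered 2. In mice with BACE2, 14 of the 15 were also higher in hIAPP than in WT islets, with a median of 0.283.

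Extracellular matrix genes were higher in 26 of 30, with a median of 0.367, and 6 did not overlap (20%, against 4.09% of all genes). Tnc, the matrix glycoprotein tenascin C, had 6.28, 7.07 and 5.72 in hIAPP/BACE2-KO arrays and 5.20, 3.16 and 5.22 in BACE2-KO arrays, a difference of 1.83 (0.49 to 3.17), which was 1.15 without BACE2-KO replicate 2, 0.79 without both arrays numbered 2 and 1.17 in the mean over its probe sets. Mmp2, a gelatinase, had 5.14, 7.03 and 4.91 in hIAPP/BACE2-KO arrays against 4.31, 4.01 and 4.34 in BACE2-KO arrays. It differed by 1.47, by 0.81 without hIAPP/BACE2-KO replicate 2 and by 0.70 without both arrays numbered 2. In both genes the highest array was hIAPP/BACE2-KO replicate 2 and the lowest BACE2-KO replicate 2. Timp2, an inhibitor of matrix metalloproteinases, was on the other side, at -0.34 (-0.62 to -0.06), at -0.56 without both arrays numbered 2 and at -0.13 in the mean over its probe sets. Fn1, Sparc and Col4a1, the first genes of the list, differed by 0.03, 0.47 and 0.38. Without both arrays numbered 2 these were -0.34, 0.085 and 0.06. The list's median was 0.183 without hIAPP/BACE2-KO replicate 2, 0.225 without BACE2-KO replicate 2 and 0.0775 without both. Between hIAPP and WT islets 17 of the 30 were higher with the transgene, with a median of 0.137. Genes of the TGF-beta pathway, which drives matrix production, had a median of 0.278 over 14 genes, and 0.113 without hIAPP/BACE2-KO replicate 2, 0.137 without BACE2-KO replicate 2 and 0.05 without both.

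Inflammatory and NF-kB genes were higher in 32 of 34, with a median of 0.367, and 4 did not overlap (11.8%, against 4.09% of all genes). Il6, the cytokine interleukin 6, had the largest positive difference of all 12825 genes, with 8.57, 9.30 and 7.25 in hIAPP/BACE2-KO arrays and 6.88, 4.90 and 6.51 in BACE2-KO arrays. It differed by 2.28 (0.68 to 3.87), by 1.68 without BACE2-KO replicate 2 and by 1.22 without both arrays numbered 2. Csf1, the growth factor of macrophages, differed by 0.44 (0.06 to 0.82) with no overlap, and by 0.22 in the mean over its probe sets. Socs3, a feedback inhibitor of cytokine signalling, differed by 0.76 with overlap. The list's mean was 6.41, 6.27 and 5.79 in hIAPP/BACE2-KO arrays and 5.81, 5.58 and 5.66 in BACE2-KO arrays. Its median was 0.188 without hIAPP/BACE2-KO replicate 1 and 0.335 without both arrays numbered 2. Between hIAPP and WT islets 22 of the 34 were higher with the transgene, with a median of 0.0667. Single arrays of the other genotypes also reached high levels: Il6 was at 9.74, 7.56 and 6.71 in hIAPP arrays and at 6.92, 7.79 and 6.54 in WT arrays.

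Macrophage and myeloid genes did not separate the groups. Of 18, 14 were higher in hIAPP/BACE2-KO islets, with a median of 0.277 and 0 without overlap, and leaving out hIAPP/BACE2-KO replicate 2 brought it to -0.0383. Leaving out hIAPP/BACE2-KO replicate 1 brought it to 0.611, and leaving out BACE2-KO replicate 1 to 0.0475. In mice with BACE2, 17 of the 18 were higher in hIAPP than in WT islets, with a median of 0.535. The lysozyme gene Lyz2 had 6.23, 8.01 and 7.23 in hIAPP/BACE2-KO arrays against 6.54, 7.10 and 7.18 in BACE2-KO arrays, a difference of 0.22 (-0.51 to 0.94), which was -0.21 without hIAPP/BACE2-KO replicate 2, 0.68 without hIAPP/BACE2-KO replicate 1 and 0.017 without BACE2-KO replicate 1. Apoe, a lipid carrier found in islet amyloid, differed by 0.58 (-0.30 to 1.47), and by 0.15 without hIAPP/BACE2-KO replicate 2, 0.13 without BACE2-KO replicate 1 and 0.99 without hIAPP/BACE2-KO replicate 1. The difference between hIAPP and WT was 1.81 for Lyz2 and 2.05 for Apoe, and neither gene's interaction passed the test (adjusted p = 0.9995 by limma for both).

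**Figure D3:**
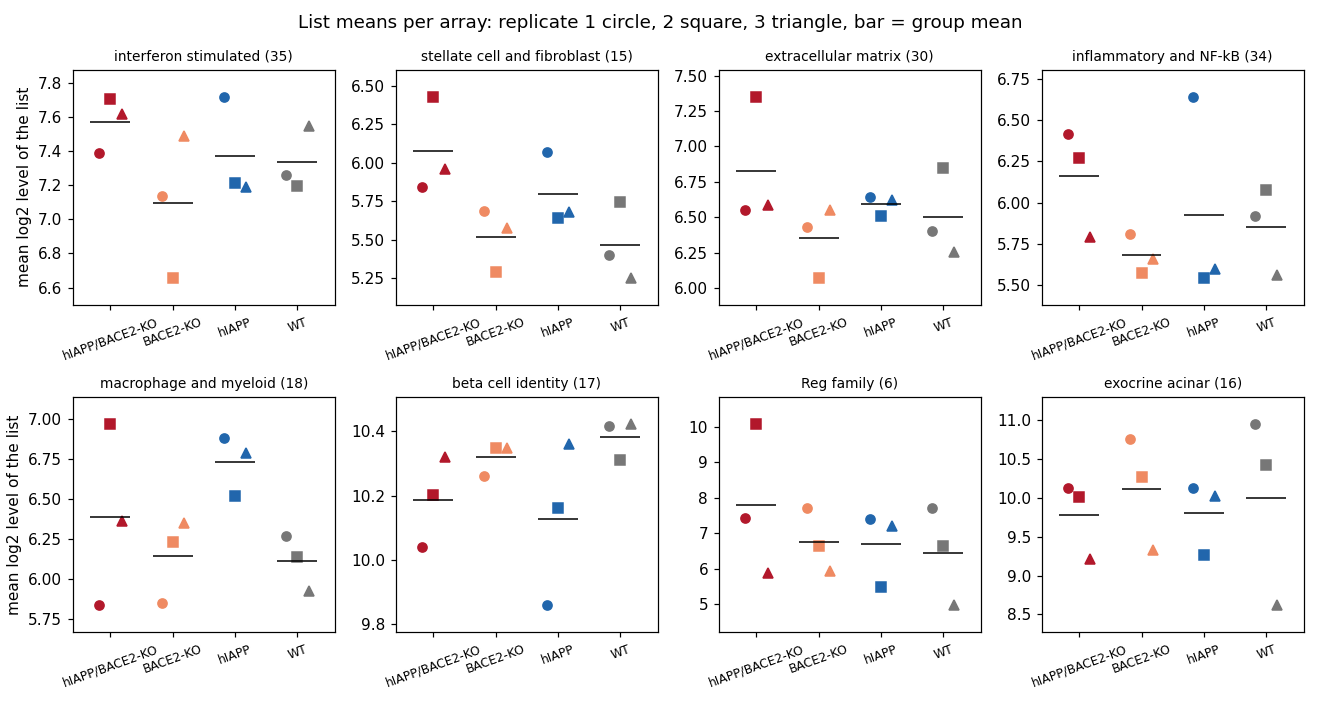
Mean log2 level of 8 gene lists per array (vertical axes, each with its own range; number of tested genes in brackets) in hIAPP/BACE2-KO, BACE2-KO, hIAPP and WT islets. Symbols mark the replicate and bars the group mean. BACE2-KO replicate 2 is lowest for interferon stimulated genes (6.66), and hIAPP/BACE2-KO replicate 2 is highest for extracellular matrix (7.35) and the Reg family (10.09).

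Exocrine tissue varied between arrays of a group. The mean of 16 acinar genes was 10.12, 10.004 and 9.22 in hIAPP/BACE2-KO arrays and 10.76, 10.26 and 9.33 in BACE2-KO arrays, with a median difference of -0.402. That median was -0.76 without BACE2-KO replicate 3, -0.163 without hIAPP/BACE2-KO replicate 3 and -0.0825 without BACE2-KO replicate 1. Reg family genes, which encode secreted lectins of injured acinar tissue, had means of 7.43, 10.09 and 5.88 in hIAPP/BACE2-KO arrays and 7.72, 6.64 and 5.93 in BACE2-KO arrays. Their median was 1.11 over all arrays and -0.126 without hIAPP/BACE2-KO replicate 2, 1.97 without hIAPP/BACE2-KO replicate 3 and 0.687 without BACE2-KO replicate 3.

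A difference of at least 1 log2 unit, a fold of 2, was found for 52 genes higher and 12 lower in hIAPP/BACE2-KO islets. The groups did not overlap in 21 of the 52. Over all genes 4.09% were higher without overlap, but a cut on size itself favours such genes, so the count is description only. In 38 of the 52, hIAPP/BACE2-KO replicate 2 was the highest of the 6 arrays, and in 32 BACE2-KO replicate 2 was the lowest. In 17 of the 52 the difference was still that large without hIAPP/BACE2-KO replicate 2. Counted afresh, 27 genes were higher by that much without that array, and 20 without both arrays numbered 2. Some of the 52, chosen after their values were seen, belonged to 1 array alone. Sprr2a1, an epithelial envelope protein, had 4.71, 9.85 and 4.64 in hIAPP/BACE2-KO arrays and 4.07, 4.34 and 4.09 in BACE2-KO arrays. Gkn3, a gastrokine of stomach epithelium, had 3.56, 7.85 and 3.53 in hIAPP/BACE2-KO arrays and 3.28, 3.24 and 3.21 in BACE2-KO arrays. Ctse, cathepsin E, and Krt20, an epithelial keratin, followed the same array, at 9.54 and 6.89 in hIAPP/BACE2-KO replicate 2.

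Of the 12 genes lower by 1 log2 unit or more, 3 did not overlap. Over all genes 5.59% were lower without overlap, and the cut on size favours such genes here too. The 3 were Hjurp, Atp4a, a subunit of the gastric proton pump, and Prkg2, a cyclic GMP-dependent kinase. Prkg2 rested on BACE2-KO replicate 1 at 6.27, against 3.63 and 3.62 in the other BACE2-KO arrays. Several of the others, likewise named after their values were seen, followed single arrays. Igkj1, an immunoglobulin light chain segment of plasma cells, had 3.75, 3.42 and 8.60 in hIAPP/BACE2-KO arrays and 8.67, 11.22 and 5.08 in BACE2-KO arrays. Jchain, which joins secreted antibody subunits, had 2.87, 2.84 and 4.96 in hIAPP/BACE2-KO arrays and 5.06, 8.95 and 2.56 in BACE2-KO arrays. Each group held both high and low arrays. The trypsinogen Prss1 had 7.68, 9.18 and 8.03 in hIAPP/BACE2-KO arrays and 12.24, 7.15 and 11.36 in BACE2-KO arrays. Prss1 and Prss3 are closely related paralogs, so their probe sets may read some of the same transcripts.

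Genes of protein stress lay near 0. The PERK-ATF4 list had a median of -0.0617 over 28 genes, the IRE1-XBP1 and ERAD list -0.0533 over 19, and the ATF6 and ER chaperones list -0.025 over 22. With each of the 6 arrays left out these medians ran from -0.0908 to 0.0508, from -0.0967 to 0.05 and from -0.0917 to 0.0742, so each took both signs. Hspa5, the main chaperone of the endoplasmic reticulum, had 11.48, 11.48 and 11.51 in hIAPP/BACE2-KO arrays and 11.53, 11.74 and 11.32 in BACE2-KO arrays, a difference of -0.04 (-0.25 to 0.17), and of 0.07 without BACE2-KO replicate 2. Ddit3, the pro-apoptotic factor CHOP, differed by -0.08 (-0.41 to 0.26). Within the PERK-ATF4 list, Ddit4, an inhibitor of mTOR, differed by 0.44 (0.09 to 0.79; 0.25 without hIAPP/BACE2-KO replicate 2), and Atf3, a stress-induced transcription factor, by 0.45 (0.08 to 0.81), both without overlap. The antioxidant and NRF2 list had a median of 0.0017 over 22 genes. Nnt, of that list, differed by -0.50. This was -0.15 without hIAPP/BACE2-KO replicate 2 and -0.13 without both arrays numbered 2.

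Amyloid associated and clearing genes had a median of -0.0133 over 15, equal to that of all genes at this rounding. Ttr, transthyretin, a carrier protein that can itself form amyloid, had 12.47, 12.32 and 12.31 in hIAPP/BACE2-KO arrays and 12.56, 12.67 and 12.72 in BACE2-KO arrays, a difference of -0.28 (-0.47 to -0.10) with no overlap. Ide, the insulin-degrading enzyme that also cleaves amylin, differed by -0.13 (-0.30 to 0.05). The related protease Bace1 differed by -0.04 (-0.28 to 0.19). Among apoptosis and p53 genes the median was 0.0367 over 21, and the p53 targets Pmaip1 and Phlda3 were higher without overlap, by 0.96 (0.23 to 1.68) and 0.70 (0.19 to 1.21). Without both arrays numbered 2 these differences were 0.42 and 0.24. Pmaip1 differed by 0.57 without hIAPP/BACE2-KO replicate 2. Those 2 genes had the lowest p of their list, in which 13 genes were higher and 8 lower. Cdkn1a and Bbc3 of that list differed by 0.15 and 0.03, and Sesn1 by -0.16. Without both arrays numbered 2, Cdkn1a and Bbc3 differed by -0.075 and -0.095. Hk2, hexokinase 2, was at 5.50, 6.31 and 5.53 in hIAPP/BACE2-KO arrays and at 4.83, 4.63 and 5.07 in BACE2-KO arrays, a difference of 0.94 (0.56 without both arrays numbered 2), in a glycolysis and hypoxia list with a median of 0.217 over 19 genes. That median was 0.33 without hIAPP/BACE2-KO replicate 1, 0.135 without hIAPP/BACE2-KO replicate 3, 0.112 without BACE2-KO replicate 2 and -0.01 without both arrays numbered 2.

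**Figure D4:**
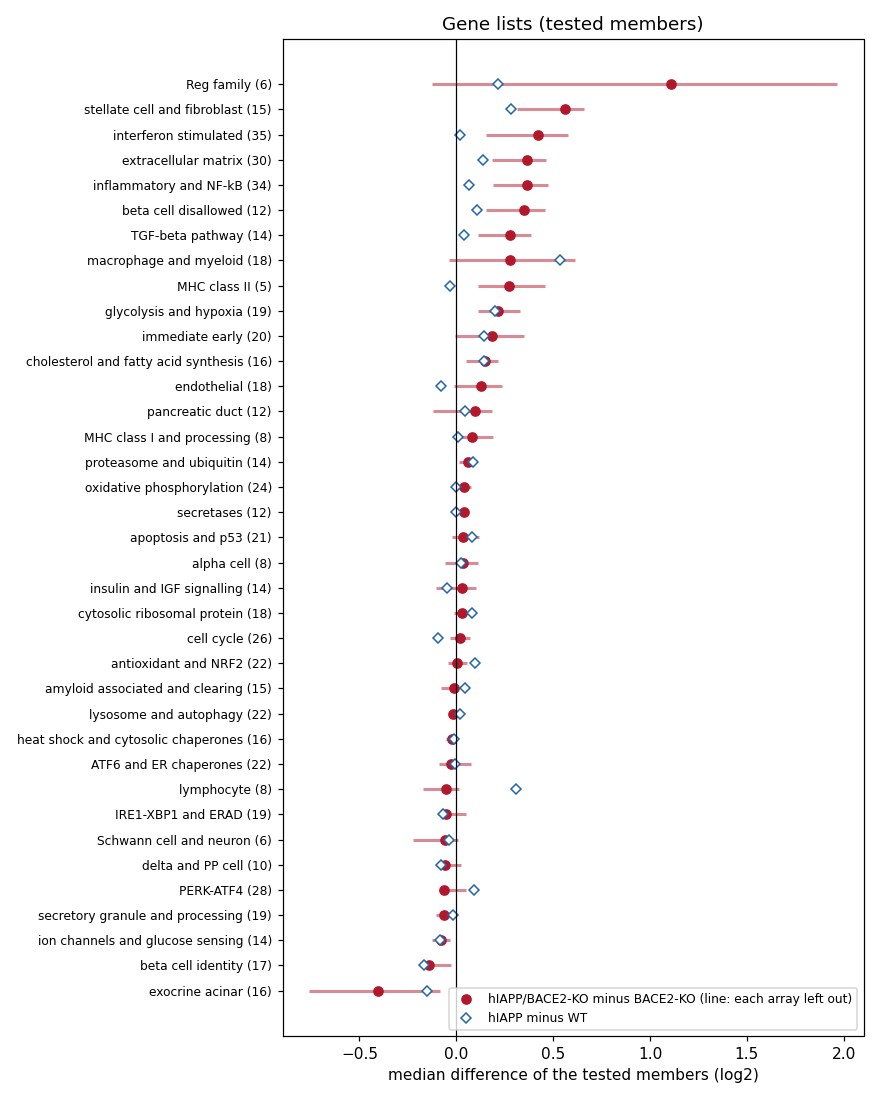
Median log2 difference of the tested members of each gene list (horizontal axis; number of members in brackets) between hIAPP/BACE2-KO and BACE2-KO islets (filled) and between hIAPP and WT islets (open). Red lines span the medians with each of the 6 arrays left out; the line of the Reg family runs from -0.126 to 1.97, that of stellate cell and fibroblast genes from 0.312 to 0.657.

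Whether the transgene difference depends on BACE2 was tested as an interaction over the 12 arrays. Limma called 1 of 12825 genes (0.0078%), Sema5a, which encodes a transmembrane semaphorin of axon guidance. It had levels of 3.70, 3.55 and 3.55 in hIAPP/BACE2-KO arrays and 3.62, 3.69 and 4.79 in BACE2-KO arrays, a difference of -0.43 (-1.12 to 0.25). That difference was -0.055 without BACE2-KO replicate 3 and -0.155 in the mean over its probe sets. In mice with BACE2 it had 8.61, 8.49 and 7.47 in hIAPP arrays and 3.50, 3.62 and 3.43 in WT arrays, a difference of 4.67. The interaction was -5.11 (limma adjusted p = 0.000722). The transcript was thus near the floor in all arrays but the 3 hIAPP arrays and, to a lesser degree, BACE2-KO replicate 3.

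Between hIAPP and WT islets 2 genes were called (0.0156%), Sema5a and Snhg18, a non-coding host gene of small nucleolar RNAs. Snhg18 had 5.97, 6.11 and 6.25 in hIAPP/BACE2-KO arrays and 6.22, 6.09 and 6.52 in BACE2-KO arrays, a difference of -0.17 (-0.67 to 0.34), and of -0.045 without BACE2-KO replicate 3. Its interaction was -2.31 and missed the threshold (limma adjusted p = 0.0705). Between hIAPP and WT, Chl1 differed by 0.22, Oas2 by 0.04, Tmem35a by -0.05, Mmp2 by 0.51 and Il6 by 0.92, and none of their interactions passed the adjusted test. Vwf, the endothelial von Willebrand factor, was at 4.92, 5.28 and 4.99 in hIAPP/BACE2-KO arrays and 4.48, 3.91 and 4.58 in BACE2-KO arrays. It differed by 0.74 (0.30 to 1.18), by 0.42 without both arrays numbered 2, and by -0.27 between hIAPP and WT. Of 18 endothelial genes, 15 were higher and 3 lower in hIAPP/BACE2-KO islets, with a median of 0.128. With each of the 6 arrays left out that median ran from -0.0142 to 0.237. The endothelial genes Pecam1 and Kdr differed by 0.19 and 0.08, and by -0.08 and -0.09 without BACE2-KO replicate 2.

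**Figure D5:**
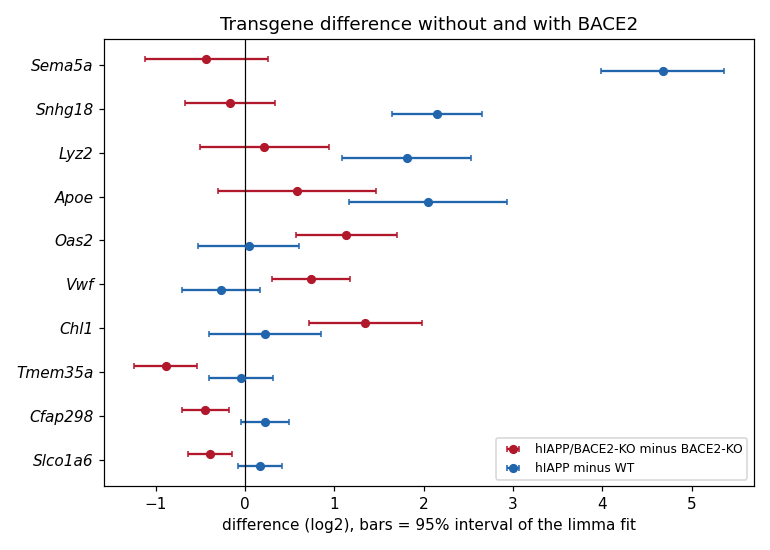
Log2 differences (horizontal axis, bars the 95% interval of the limma fit) of 10 genes between hIAPP/BACE2-KO and BACE2-KO islets and between hIAPP and WT islets. Sema5a lies at -0.43 and 4.67, and is the one gene whose interaction passed the test.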

How the data were processed

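Islet RNA was hybridised to 12 Affymetrix expression arrays. The deposited values are log2 levels per probe set, which the authors made with RMA and affy (per the submitters' processing notes, without versions). Array medians ran from 4.22 to 4.35, and arrays hold no read depth, so their number limits the precision. Of 45141 probe sets, 28898 had 1 symbol in the platform annotation, 551 had several and 15692 were not listed. A gene with several one-symbol probe sets took the one brightest on average, and genes below the 25th percentile of mean level (3.43) were left out.

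Limma 3.58.1 in R 4.3.3 fitted group means to the 12 arrays together (lmFit, eBayes with trend), with two-sided p-values and Benjamini-Hochberg adjustment over the 12825 genes. Intervals are 95% and unadjusted. The steps were tested on simulated data. The 39 gene lists and the members were chosen with earlier results of these data known. Genes were named by a rule: the hormones, Bace2, Nnt, Sema5a and Snhg18; called genes; the 15 lowest p each way without overlap; and, of each list, the first 3 measured and up to 6 with the lowest p. Alternatives changed the filter, probe set, normalization, variance model, arrays fitted (each left out in turn), threshold, replicate block, array weights and an acinar covariate. Promoters came from RefSeq (GRCm38.p6). Plots used matplotlib 3.10.9.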

Additional observations from a re-analysis of the deposited data

Results flagged for a closer look

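The transgene difference of Sema5a differed between mice without and with BACE2 by -5.11 log2 in the interaction of the limma fit. It was -0.43 between hIAPP/BACE2-KO and BACE2-KO islets (-0.055 without BACE2-KO replicate 3, -0.155 in the mean over its probe sets) and 4.67 between hIAPP and WT islets. Its cause was not tested.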

How the results depend on the processing

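Under every alternative run, 0 genes were called between hIAPP/BACE2-KO and BACE2-KO islets at an adjusted p under 0.05. The lowest adjusted p was 0.0997, without hIAPP/BACE2-KO replicate 1, and the number of genes at an unadjusted p under 0.05 ran from 379 to 807. The interaction called 0 genes above the 50th percentile and without moderation, and 2 with the largest-variance probe set, the robust variance model and an adjusted p under 0.1. It called 1 to 2 with an array left out. Between hIAPP and WT 1 gene, Snhg18, was called above the 50th percentile, and 1, Sema5a, without moderation. With an array left out 1 to 3 were called. A fit of only the 6 hIAPP and WT arrays called 3, Apoe, Lyz2 and Sema5a, and not Snhg18. The choice of probe set moved some named values by over 1.5 times. The causes were not tested, beyond the fewer genes or arrays in some fits.

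The replicate numbers were not used as pairs in the main fit. Deviations of same-numbered hIAPP/BACE2-KO and BACE2-KO arrays correlated at 0.145, -0.129 and 0.151. Arrays numbered 1 and 3 correlated best with their own number, and those numbered 2 did not. In the other pairs of groups same-numbered arrays correlated from -0.1165 to 0.372. These values do not settle whether the numbers mark a pairing. With the number as a replicate block 0 genes were called here, 1 in the interaction and 2 between hIAPP and WT. Leaving out both arrays numbered 2 was chosen after seeing the data. With 3 arrays a group, differences below the intervals given cannot be seen.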
